A study of Mus musculus with 12 samples.

Results

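The ketone body genes of the mouse heart were followed here through 5 members, Bdh1, Bdh2, Oxct1, Acat1 and Slc16a1, in a model of heart muscle disease in which CELF proteins are repressed. Every probe of the arrays annotated to 1 of these 5 symbols was taken, which gave 7 of 45281 probe IDs and, once IDs that carried the same values throughout the 12 arrays had been merged, 5 of 30854 distinct features, 1 for each of 5 of the 19013 genes with a symbol. Bdh1 drew attention to the set because it was higher in the mild line of the model than in wild type, and the question was whether the other enzymes and the transporter of the pathway moved with it. The values of Bdh1 in the mild line are therefore given as a description, with no test.

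The model, MHC-CELFΔ, is a transgene for a dominant negative CELF protein that stays in the nucleus and is driven by the α-myosin heavy chain promoter, so that it acts in heart muscle cells. CELF proteins bind RNA and regulate its splicing. All animals were FVB/N females of 3 weeks on a standard diet, and the arrays were MouseWG-6 v2.0 BeadChips of Illumina for total RNA of the whole heart, with 1 heart on each of 12 arrays. The groups were the mild line, MHC-CELFΔ-574, with 3 hearts, the severe line, MHC-CELFΔ-10, with 3 hearts, and their nontransgenic wild type littermates, 3 from each line, which were pooled into 6 wild type hearts. Both lines were kept as hemizygotes. They are separate transgenic lines, so the amount of transgene product and any other difference between the lines cannot be told apart here.

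Ketone bodies are made in liver mitochondria from the acetyl-CoA that fatty acid oxidation yields, and they reach the heart in the blood as β-hydroxybutyrate and acetoacetate. Monocarboxylate transporters bring them into the cell, β-hydroxybutyrate dehydrogenase turns β-hydroxybutyrate into acetoacetate in the mitochondrion, a CoA transferase activates acetoacetate with the CoA of succinyl-CoA, and a thiolase splits the product into acetyl-CoA for the citric acid cycle. The heart is a strong user of ketone bodies, and suckling rodents, whose milk is rich in fat, have high ketone levels in the blood until weaning. Slc16a1 encodes monocarboxylate transporter 1, Bdh1 the mitochondrial β-hydroxybutyrate dehydrogenase, Bdh2 a cytosolic dehydrogenase named for the same reaction, Oxct1 the CoA transferase SCOT and Acat1 the mitochondrial acetoacetyl-CoA thiolase.

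In the mouse genome (RefSeq, GRCm38.p6), Bdh1 lies at chr16:31422297-31458901, Bdh2 at chr3:135281221-135304426, Oxct1 at chr15:4026428-4155344, Acat1 at chr9:53580522-53610350 and Slc16a1 at chr3:104638664-104658462. RefSeq promoters were at hand for 4 of the 5 members, and for Bdh1 they held 2 transcription starts, 6456 bases apart. The 250 bases before each start of Bdh1, the member that stood out in the mild line, are printed with those of Oxct1, whose enzyme takes up the product of Bdh1. All are on the plus strand and capitals mark CG dinucleotides. The windows are chr16:31422047-31422296 and chr16:31428503-31428752 for Bdh1 and chr15:4026178-4026427 for Oxct1.
Bdh1 start 1: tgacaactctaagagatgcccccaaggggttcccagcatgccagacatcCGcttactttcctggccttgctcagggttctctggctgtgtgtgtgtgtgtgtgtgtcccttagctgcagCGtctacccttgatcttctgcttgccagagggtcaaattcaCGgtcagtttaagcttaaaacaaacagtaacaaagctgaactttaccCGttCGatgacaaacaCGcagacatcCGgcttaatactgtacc
Bdh1 start 2: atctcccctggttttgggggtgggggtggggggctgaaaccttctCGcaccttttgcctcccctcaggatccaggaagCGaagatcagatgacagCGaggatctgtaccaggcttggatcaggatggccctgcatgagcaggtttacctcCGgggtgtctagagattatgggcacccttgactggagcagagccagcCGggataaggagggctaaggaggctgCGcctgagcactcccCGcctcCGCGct
Oxct1: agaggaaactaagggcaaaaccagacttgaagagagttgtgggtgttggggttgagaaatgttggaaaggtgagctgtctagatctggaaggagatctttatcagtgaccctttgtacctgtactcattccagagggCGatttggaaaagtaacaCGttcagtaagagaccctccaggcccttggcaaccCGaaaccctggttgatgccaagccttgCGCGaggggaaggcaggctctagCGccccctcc
The windows of Bdh1 held 7 and 9 CG dinucleotides, that of Oxct1 held 6 and that of Bdh2 held 5, against a median of 6 over 32851 promoters. Slc16a1 differed in this, with 37 CG dinucleotides and a GC content of 76.4%, where the median promoter had 52.4%. Both strands of each window were searched for the estrogen-related receptor motif AAGGTCA, the GC box GGGCGG, the TATA box TATAAA and the CArG box, which occur in 4.08%, 32.7%, 12.4% and 1.47% of all promoters. None of these letters were found in the windows of Bdh1, Bdh2 and Oxct1, and Slc16a1 held 1 GC box, 85 bases before its start.

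Values below are log2 normalized signals unless another scale is named, and a change is a difference between group means on that scale, tested with limma over all 30854 features and called at an adjusted p under 0.05. The median signal of an array was 6.28. Raw medians ran from 103 to 106 in mild, from 116 to 119 in severe and from 103 to 112 in wild type hearts, and the closest pair of arrays differed by a root mean square of 0.155, so no array was a copy of another. All 5 measured markers of heart muscle were at or above the 95.5th percentile of signal, and 1 of them, Ryr2, the calcium release channel, was lower in both lines. The summed signal of 5 fibroblast markers, on the linear scale, ran from 8515 to 11389 in mild, from 9607 to 10133 in severe and from 7641 to 9214 in wild type hearts, and Col1a1 was higher in the severe line. No other of the listed markers of endothelium, macrophages, fat, red blood cells, liver, skeletal muscle, lymphoid cells, pancreas or lung was called in either line, and the liver markers Alb, Apoa1 and Serpina1a were not above the median signal. Nor were Plin1, Retn and Cidec of fat, Myh1, Myh4 and Actn3 of skeletal muscle, or Cd8a of lymphoid cells. The same held for Cela1 and Prss2 of pancreas and for Sftpc, Sftpb and Scgb1a1 of lung. For markers this dim a change can go undetected. Replicate 1 among the severe line's littermates stood apart in the pancreas markers, with a sum of 3337, mainly Ins2, where the next array had 459. The part of these markers in the results below was not tested, and in whole hearts fewer cells of a type and less RNA per cell cannot be told apart.

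Bdh1, the first enzyme of β-hydroxybutyrate use, was the only member whose mild line arrays were all above every array of both other groups. No overlap with higher values in the mild line than in wild type was seen for 3.60% of all features. Its signals were 8.22, 8.36 and 8.05 in mild line hearts and 7.05, 7.12 and 7.17 in severe line hearts. In wild type hearts they were 6.88, 7.07 and 7.07 in littermates of the mild line and 6.82, 6.79 and 7.36 in those of the severe line. The lowest mild line array was 0.69 above the highest wild type array and 0.88 above the highest severe line array. Bdh1 averaged 8.21 ± 0.16 in mild, 7.11 ± 0.056 in severe and 7.00 ± 0.21 in wild type hearts (SD, n = 3, 3 and 6), which put the mild line 1.21 above wild type, or 2.32-fold, and 1.10 above the severe line. Before any correction its raw intensities ran from 285 to 349 in mild, from 168 to 185 in severe and from 142 to 177 in wild type hearts, and the mild mean was 1.99 times that of wild type. With each line set against its own littermates, the mild line's change exceeded that of the severe line by 1.08.

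The wild type arrays took part in the choice of Bdh1, so tests against them or between their litters are not independent of it. The severe line took no part in the choice and was tested with this limit. Its change from wild type was 0.11 (standard error 0.11, 95% interval -0.11 to 0.33, adjusted p = 0.731 by limma, n = 3 and 6), and its arrays lay inside the wild type range. The littermates of the mild line differed from those of the severe line by 0.022 in Bdh1 (95% interval -0.24 to 0.28, adjusted p = 0.977 by limma). The highest wild type array, at 7.36, was a littermate of the severe line.

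**Figure D1:**
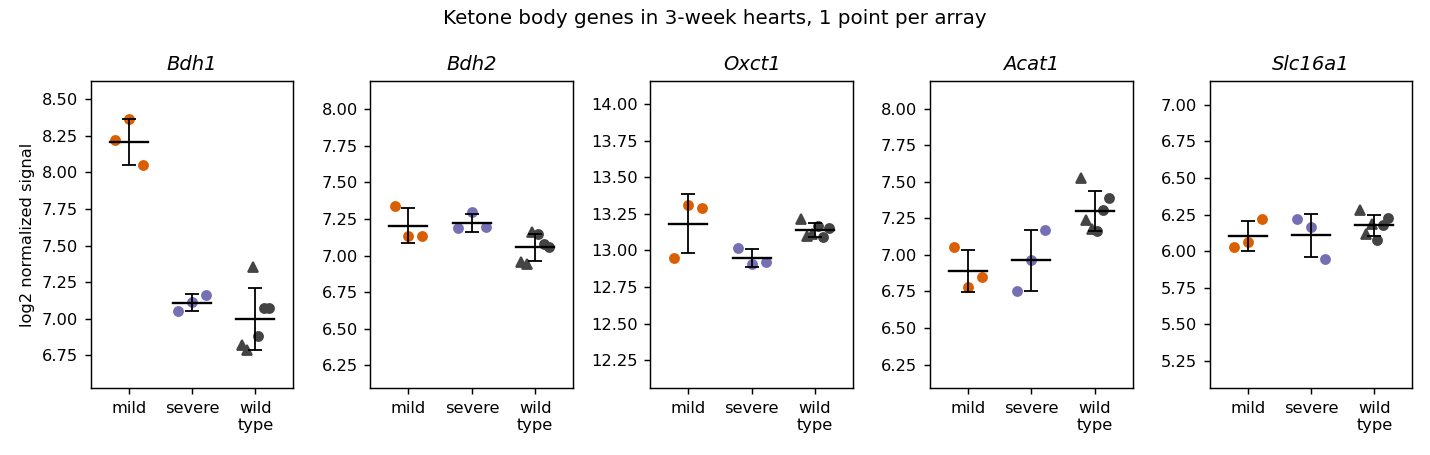
Log2 normalized signal (vertical axes, each of the same span) of the 5 ketone body genes on 12 arrays, 3 of the mild line, 3 of the severe line and 6 of wild type hearts, with the mean as a bar and the SD as whiskers. Among wild type points, circles are littermates of the mild line and triangles those of the severe line. Bdh1 of the mild line sits between 8.05 and 8.36, apart from the rest, and Acat1 of the mild line, between 6.78 and 7.05, lies below all wild type arrays.

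None of the other 4 members was called higher in the mild line by limma, nor was any at an unadjusted p under 0.05, where 6.06% of all features were, and 1 of 4, Acat1, was called lower, where 3.55% of all features were called in this comparison, 1.62% as higher and 1.93% as lower. Against wild type, the severe line had 0 of the 5 members called by limma, where 3.30% of all features were called, and 3 of them, Acat1, Oxct1 and Bdh2, had an unadjusted p under 0.05, as had 13.5% of all features. Between the lines limma called 0 of the 4 members that could be tested, where 1.37% of all features were called, and 1 of them, Oxct1, had an unadjusted p under 0.05, as had 12.4% of all features.

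Acat1, the thiolase that ends the pathway, moved in the opposite direction to Bdh1 in the mild line. Its signals were 7.05, 6.78 and 6.85 in mild line hearts, 6.75, 6.97 and 7.17 in severe line hearts, 7.16, 7.31 and 7.39 in littermates of the mild line and 7.52, 7.24 and 7.18 in those of the severe line. The mild line arrays were all below the lowest wild type array, by 0.11 or more, as were those of 3.92% of all features, while the highest severe line array, at 7.17, just reached the lowest wild type array, at 7.16. Acat1 averaged 6.89 ± 0.14 in mild, 6.96 ± 0.21 in severe and 7.30 ± 0.14 in wild type hearts (SD, n = 3, 3 and 6). Its raw intensities ran from 137 to 161 in mild, from 145 to 185 in severe and from 161 to 212 in wild type hearts. These were not far above the raw medians of the arrays, though the mean signal was at the 75.5th percentile. Bdh1 and Bdh2 were at a like level, at percentiles 78.1 and 75.8. The mild line change was -0.41 (standard error 0.097, 95% interval -0.61 to -0.20, 0.754-fold, adjusted p = 0.0212 by limma). The severe line change was -0.34 (95% interval -0.54 to -0.13) and did not pass the test (adjusted p = 0.0691 by limma), and the lines differed by -0.070 (95% interval -0.31 to 0.16, adjusted p = 0.865 by limma). The reduction in Acat1 was thus not shown to be particular to either line.

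The call of Acat1 in the mild line depended on single arrays and settings. It ended with mild line replicate 2 (-0.35, adjusted p = 0.167 by limma) or 3 (-0.39, adjusted p = 0.111) left out, at a background offset of 16 (-0.54, adjusted p = 0.0626) and when only the mild line's own littermates were the control (-0.39, adjusted p = 0.0947). Without the wild type array that stood apart in pancreas markers it held, at -0.36 (adjusted p = 0.0391 by limma). For the severe line the change passed the test with replicate 3 of that line left out (-0.44, adjusted p = 0.0322 by limma) and when median scaling replaced quantile normalization (-0.39, adjusted p = 0.0376). Acat1 stayed below wild type in both lines under all 26 alternatives, though some of these, such as the signal filter, leave the value unchanged by construction.

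Oxct1, the CoA transferase that commits acetoacetate to oxidation, was among the brightest features of the arrays, at the 99.4th percentile. Its signals were 12.95, 13.31 and 13.29 in mild line hearts and 13.02, 12.91 and 12.92 in severe line hearts. Wild type hearts gave 13.17, 13.10 and 13.15 in littermates of the mild line and 13.21, 13.10 and 13.11 in those of the severe line. Of the mild line, 2 arrays were above all wild type arrays and replicate 1 was below them all, and the change of 0.043 had a 95% interval of -0.12 to 0.20 (adjusted p = 0.903 by limma), which leaves out a change as large as that of Bdh1. Without mild line replicate 1 the change was 0.16 (adjusted p = 0.416 by limma), and without replicate 2 it was -0.019. Under median scaling it was -0.0087.

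For Oxct1 all 3 severe line arrays were below the lowest wild type array, by 0.077 or more, as were those of 3.63% of all features. The change was -0.19 (standard error 0.077, 95% interval -0.35 to -0.029) and did not pass the test across all features (adjusted p = 0.250 by limma). Before correction its raw intensities ran from 7160 to 7629 in severe and from 8413 to 10714 in wild type hearts, while the raw medians of the severe line arrays were the highest of the series. With median scaling the change was -0.39 and was called (adjusted p = 0.00910 by limma), so how the arrays are brought to 1 scale decided the call. The mild line was 0.23 above the severe line (95% interval 0.047 to 0.42, adjusted p = 0.257 by limma), and 0.38 above it with median scaling (adjusted p = 0.0580).

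Bdh2 shares its name with Bdh1 but encodes a cytosolic enzyme that is also known for a part in iron handling. Its signals were 7.34, 7.13 and 7.13 in mild line hearts, 7.19, 7.30 and 7.19 in severe line hearts, 7.15, 7.08 and 7.06 in littermates of the mild line and 6.95, 6.94 and 7.16 in those of the severe line. One mild line array, replicate 1, was above the wild type arrays and the other 2 were inside their range. The mild line change was 0.15 (95% interval -0.0073 to 0.30, adjusted p = 0.442 by limma) and the severe line change was 0.17 (95% interval 0.015 to 0.32, adjusted p = 0.302 by limma). The 3 severe line arrays were all above the wild type arrays, by 0.027 or more, as were those of 3.59% of all features. The lines differed in Bdh2 by -0.022 (95% interval -0.20 to 0.16, adjusted p = 0.953 by limma), so the pattern of Bdh1 was not seen in its namesake.

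Slc16a1, the transporter that carries lactate, pyruvate and ketone bodies across the cell membrane, was dim. Its mean signal was at the 35.5th percentile, below the median feature, and without detection p-values in the files it is not known whether it exceeded background. The arrays gave 6.03, 6.07 and 6.22 in mild line hearts, 6.22, 6.16 and 5.94 in severe line hearts, 6.08, 6.18 and 6.23 in littermates of the mild line and 6.28, 6.12 and 6.18 in those of the severe line, and all groups overlapped. The mild line changed by -0.073 (95% interval -0.23 to 0.085, adjusted p = 0.803 by limma) and the severe line by -0.070 (95% interval -0.23 to 0.088, adjusted p = 0.778). For a probe this dim a change in the RNA can go undetected.

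**Figure D2:**
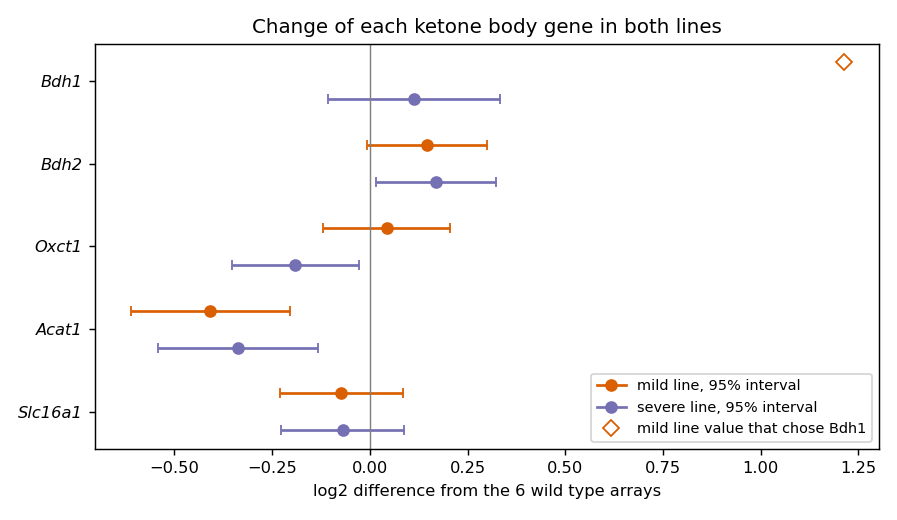
Log2 difference from the 6 wild type arrays (horizontal axis) for each of the 5 genes, the mild line above the severe line, with the 95% interval of the limma fit as whiskers. The open diamond is the mild line value of Bdh1, 1.21, which has no interval because it chose the set. The mild line intervals of the other 4 genes end at or below 0.30, and those of Acat1 lie below 0 in both lines.

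Between the sets of wild type littermates, limma called none of the 5 members, where 0.0875% of all features were called. Their adjusted p was at least 0.835, and 0 had an unadjusted p under 0.05, where 9.96% of all features did. The difference between the lines with the litters taken out was -0.096 for Bdh2, 0.24 for Oxct1, -0.043 for Acat1 and 0.031 for Slc16a1. Limma called 0 of these 4, where 0.266% of all features were called. At an unadjusted p under 0.05 there were 0 of the 4, where 7.31% of all features passed. Across the 12 arrays Bdh1 correlated with Bdh2 at 0.48, with Oxct1 at 0.26, with Slc16a1 at -0.29 and with Acat1 at -0.60. Over the 9 arrays without the mild line the values were 0.66, -0.44, -0.13 and -0.31, and arrays of a group share its genotype. Outside the mild line Oxct1 and Acat1 went together at 0.66, and across all 12 arrays at 0.0016.

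Other genes of ketone body metabolism were read from a list of 30, of which 25 were analysed here, each taken by its brightest feature. Limma called 0 of the 25 higher in the mild line, where 1.62% of all features were, and 3 lower, where 1.93% were, with a median change of -0.071, where the median over all features was 1.8e-05. For the severe line it called 0 higher, where 1.75% of all features were, and 4 lower, where 1.56% were, with a median of -0.081 against -0.00046. At an unadjusted p under 0.05, 1 was higher and 8 lower in mild line hearts, where 6.06% of all features were higher and 6.25% lower, and 2 were higher and 7 lower in severe line hearts, where 6.55% of all features were higher and 6.95% lower.

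The genes called lower were of the succinyl-CoA supply, the thiolases and the regulators. Suclg1 encodes the alpha subunit of the succinate-CoA ligase, which interconverts succinate and succinyl-CoA, the CoA donor of SCOT. Its change was -0.25 for the mild line (adjusted p = 0.0289 by limma) and -0.24 for the severe line (adjusted p = 0.0435). Dlst, the succinyltransferase of the 2-oxoglutarate dehydrogenase complex that forms succinyl-CoA, changed by -0.39 and -0.33 in the mild and the severe line by its brightest feature (adjusted p = 0.0117 and 0.0363 by limma), and its other 3 features were not called. Suclg2, the GDP-forming beta subunit of the ligase, was called for the severe line (-0.33, adjusted p = 0.0274 by limma) but not for the mild line (-0.29, adjusted p = 0.0522). The lines differed in Suclg2 by 0.038 (adjusted p = 0.924 by limma), so its reduction was not shown to be particular to the severe line. By their brightest features, all 5 genes of the succinyl-CoA supply had values below 0 in both lines, with medians of -0.25 for mild and -0.24 for severe. The other 3 features of Dlst gave 0.17, -0.41 and -0.19 for the severe line.

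Acaa2, the mitochondrial 3-ketoacyl-CoA thiolase that closes fatty acid oxidation and belongs to the same enzyme family as Acat1, had the largest change of the list. Its signal ran from 10.96 to 11.26 in mild, from 11.57 to 11.67 in severe and from 11.74 to 12.18 in wild type hearts. The groups did not overlap. Acaa2 had its arrays all below wild type, as had 3.92% of all features for mild hearts and 3.63% for severe hearts. The change was -0.81 for the mild line (standard error 0.089, adjusted p = 1.3e-05 by limma) and -0.29 for the severe line (adjusted p = 0.0952), where median scaling gave -0.45 and a call (adjusted p = 0.0301). The lines themselves differed by -0.52 (standard error 0.10, adjusted p = 0.0140 by limma), a comparison that still holds any litter difference. With the litters taken out the difference was -0.52 (standard error 0.15, adjusted p = 0.290 by limma) and was not called. The class listed as thiolases also held Hadha, the alpha subunit of the trifunctional protein, in which the beta subunit Hadhb has the thiolase activity. All 4 genes of this class had values below 0 in both lines, with medians of -0.25 for mild and -0.26 for severe. Acaa2 was the only one called. Sirt3, a mitochondrial deacetylase, was lower in severe line hearts (-0.41, adjusted p = 0.00450 by limma), and its mild line value was -0.26 (adjusted p = 0.0898). The lines differed in Sirt3 by 0.15 and this was not called (adjusted p = 0.529 by limma). The severe line call of Sirt3 ended at a background offset of 16 (-0.42, adjusted p = 0.0527 by limma) and with the order of probes as a covariate (-0.33, adjusted p = 0.0528).

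**Figure D3:**
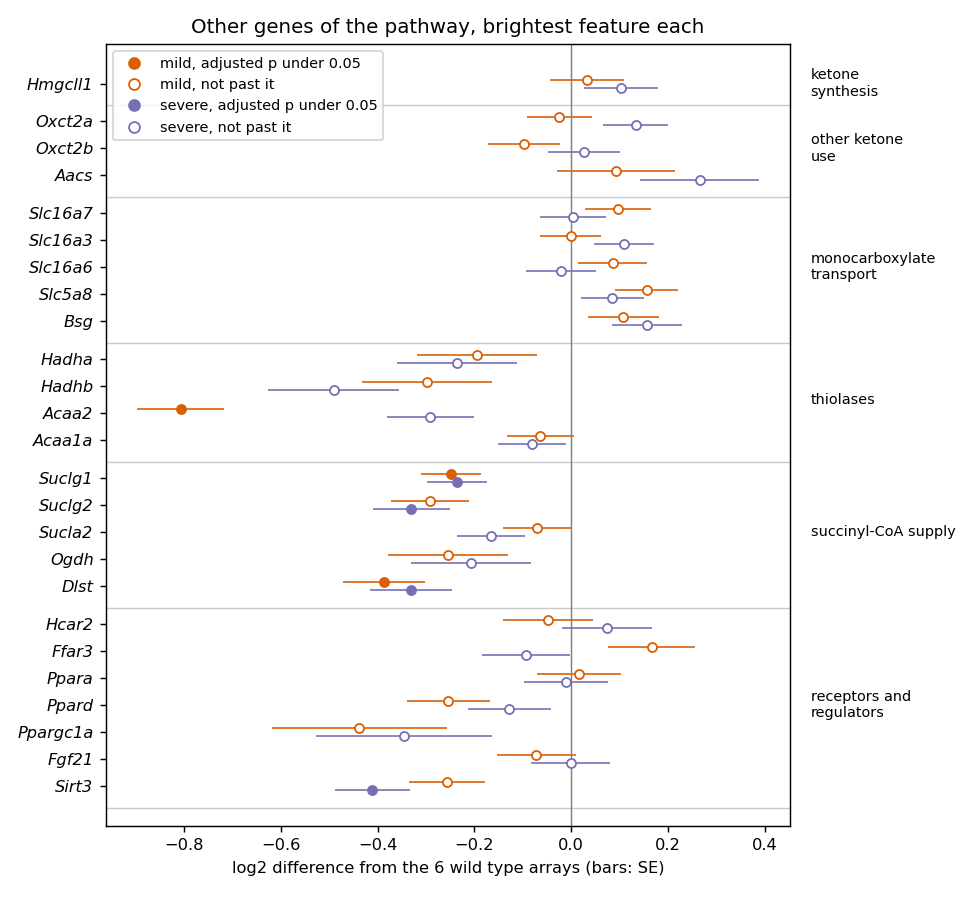
Log2 difference from the 6 wild type arrays (horizontal axis, whiskers give the SE) for the brightest feature of each of 25 other genes of the pathway, grouped by role, the mild line above the severe line. Filled points have an adjusted p under 0.05. All filled points lie below 0, and Acaa2 of the mild line, at -0.81, lies farthest out.

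No transporter or regulator in the list was called higher in either line. Among monocarboxylate transporters, Slc16a3, the lactate exporter of glycolytic cells, had a mild line difference of -0.0011 and a severe line difference of 0.11, and Slc16a7, a high-affinity form, had 0.096 for mild and 0.0036 for severe. Bsg, the chaperone that takes Slc16a1 to the membrane, had 0.11 for mild and 0.16 for severe. Ppara, the nuclear receptor that drives ketone synthesis in liver, had 0.016 for mild and -0.011 for severe. Ppargc1a, a coactivator of mitochondrial genes, had -0.44 for mild and -0.35 for severe by its brightest feature. The other Ppargc1a feature, dim at the 5.6th percentile, gave -0.024 for mild and -0.049 for severe. None of these 5 was called in either line (adjusted p from 0.294 to 0.997 by limma). Of the 25 genes, 7 were not above the median feature in signal, among them Slc16a3 and Slc16a7.

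The counts of the list were small and moved with single arrays. For the mild line 1 gene was called lower with its replicate 1 or 2 left out, and 6 were with replicate 3 among the severe line's littermates left out. For the severe line the count was 1 or 2 without any of its own 3 arrays, without replicate 1 or 2 of its littermates and without replicate 1 or 2 of the mild line's littermates. Among single genes, Dlst lost its mild line call without mild line replicate 1 or 2 (-0.37 each, adjusted p = 0.0684 and 0.0747 by limma), and its calls in both lines ended when its features were averaged (-0.21 for mild and -0.19 for severe). The severe line call of Dlst ended without any 1 of the severe line arrays, replicate 2 of their littermates or replicate 1 or 2 of the mild line's littermates (with adjusted p from 0.0525 to 0.207 by limma). That of Suclg2 ended without severe line replicate 1 or 3, replicate 1 of their littermates or replicate 1 or 2 of the mild line's littermates (with adjusted p from 0.0509 to 0.204 by limma). Suclg1 lost its mild line call without any 1 mild line array, replicate 1 or 2 of the severe line's littermates or replicate 1 of the mild line's (adjusted p from 0.0541 to 0.169 by limma), and its severe line call without any 1 array but replicate 2 of the mild line's littermates (with adjusted p from 0.0512 to 0.147). Left out, replicate 3 of the severe line's littermates gave calls in mild line hearts to Suclg2 (-0.31, adjusted p = 0.0465 by limma) and Sirt3 (-0.30, adjusted p = 0.0338), and severe line replicate 2 gave one to Suclg2 (-0.29, adjusted p = 0.0376). The difference in Acaa2 between the lines lost its call without mild line replicate 2 or 3 (-0.45 and -0.50, adjusted p = 0.0825 and 0.0717 by limma), without severe line replicate 2 (-0.49, adjusted p = 0.0587) and under median scaling (-0.42, adjusted p = 0.161). Its fall in mild line hearts kept an adjusted p of at most 0.000569 under every alternative fit.

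Genes with a profile like that of Bdh1 were looked for among 11300 features above the median signal. The closest by Pearson correlation over 12 arrays were Nqo1, a quinone reductase of the antioxidant response (0.936), 1700088E04Rik (0.936), Myot, a protein of the muscle Z disc (0.930), Cep70, a centrosomal protein (0.930), and Psmb10, a subunit of the immunoproteasome (0.925). The mild line arrays carried this likeness, since over the other 9 arrays the correlations were 0.25, 0.52, 0.39, -0.63 and 0.42. Nqo1 lay between 8.75 and 8.86 in mild, between 7.51 and 7.90 in severe and between 7.41 and 7.83 in wild type hearts, a difference from wild type of 1.15 for mild and -0.00022 for severe. Myot differed by 1.22 for mild and 0.34 for severe, and Cep70 by 3.43 for mild and -0.13 for severe. The remaining pair differed less, Psmb10 by 0.49 for mild and 0.12 for severe and 1700088E04Rik by 0.34 for mild and 0.042 for severe. These genes were chosen for their likeness, so their values were not tested.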

How the data were processed

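Total RNA of whole hearts was measured on 12 arrays. The authors deposited raw intensities, 1 bead summary per probe, and a value table of log2 signals after background correction and quantile normalization. The submitters' processing notes name GenomeStudio and limma without versions, and the genome build of the probes is not given in the sources used here. Symbols came from the platform annotation. Of 45281 probe IDs, 34885 had 1 symbol, 18 several and 10378 none, and IDs with identical values were merged. Lines that carried no ID (6, on 3 arrays) were dropped. These 3 files (severe line replicates 1 and 2 and replicate 3 of the severe line's littermates) list the probes in another order.

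Raw intensities were background corrected (normal-exponential model, offset 50), quantile normalized and transformed to log2. Group means were fitted in R 4.3.3 with limma 3.58.1, with 3 groups, or 4 where the littermate sets were compared, and p-values were adjusted (Benjamini-Hochberg) over 30854 features within each of 5 comparisons. The script was tested on simulated data. The number of arrays limits the precision, and intervals are at 95%.

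The members and gene lists were chosen with earlier results of these data known. Named were the 5 members, list genes called in a line or between the lines, Slc16a3, Slc16a7, Bsg, Ppara and Ppargc1a, and the 5 genes most like Bdh1. Of the 30 listed genes, 5 were not analysed here. Alternatives were no background correction, an offset of 16, median scaling, a signal filter, the authors' table, array weights, trend and robust variances, averaged features, own littermates, a block by replicate number together with own littermates, fits of 2 groups, the rule of the study (at least 2-fold, and either an adjusted p under 0.05 or an unadjusted p under 0.001) and leaving out each array. The order of probes as a covariate and every probe ID kept were chosen after seeing the data.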

Additional observations from a re-analysis of the deposited data

Results flagged for a closer look

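The change of Bdh1 against the line's own littermates was larger in the mild line than in the severe line, by 1.08 on the log2 scale, with all 3 mild line arrays above all arrays of the other groups. The flag was set by the limma fit of this difference. Because the mild line arrays chose the gene, the flag is no support for the difference, and no test result is given. Over the 15 genes whose 6 wild type arrays were examined with Dixon's criterion, none had an array that stood apart.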

How the results depend on the processing

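No value changed sign while called, and 0 pathway genes were called higher under any alternative. Bdh1 in the mild line was 1.21, with 1.04 without background correction, 1.49 with an offset of 16, 1.02 in the authors' table and 1.14 to 1.29 when 1 array was left out. Acat1 in the mild line, -0.41, lost its call with the offset of 16 (-0.54), with its own littermates (-0.39), with the replicate block and own littermates together (-0.39, adjusted p = 0.232 by limma) and under the rule of the study (-0.41), and ran from -0.49 to -0.35 with 1 array left out. With median scaling the severe line's Oxct1 (-0.39) and Acat1 (-0.39) were called, as was its Acaa2 (-0.45), and with 1 array left out the first 2 ran from -0.23 to -0.17 and from -0.44 to -0.23. The cause was not tested.

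Features called were 1096 in the mild line, 620 with the offset of 16, 721 with own littermates, 621 with the replicate block and own littermates together, 83 under the rule of the study, 2068 with every probe ID kept and 623 to 1072 with 1 array left out. In the severe line, 1019 became 493 with the offset of 16, 534 with the replicate block and own littermates together, 42 under the rule of the study, 596 with the order of probes as a covariate, 1962 with every ID kept and 489 to 1090 with 1 array left out. Between the lines, 422 became 169 with the offset of 16, 138 with the order of probes, 723 with every ID kept and 195 to 486 with 1 array left out. Every ID kept counts features more than once by construction.

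Pathway genes called lower in the mild line numbered 3, with 1 at the offset of 16, 5 with array weights, 1 with the replicate block and own littermates together, 0 under the rule of the study and 1 to 6 with 1 array left out. In the severe line they numbered 4, with 0 at the offset of 16, 0 with the replicate block and own littermates together, 2 in the fit of 2 groups, 0 under the rule of the study, 0 with the order of probes and 1 to 4 with 1 array left out. Between the lines the 1 called became 0 at the offset of 16, with median scaling and with the order of probes, and 0 to 1 with 1 array left out. The labels do not say whether replicate numbers pair the animals. With group means taken out, same-numbered arrays correlated at -0.066 to 0.097 in the mild line and at -0.36 to 0.013 in the severe line. With 3 arrays in a group, these values cannot show whether the animals were paired. Sirt3 in the severe line lost its call with the replicate block and own littermates together (-0.33, adjusted p = 0.117 by limma) and under the rule of the study (-0.41). The signal filter left no value for Slc16a1.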
